A study of Mus musculus with 4 samples.

Results

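The transcription factors examined here hold mouse embryonic stem cells in the pluripotent state, and they were measured in neural precursors that had been made from such cells and then depleted of Geminin. The set has 10 members, chosen by symbol: Pou5f1, Nanog, Esrrb, Zfp42, Klf2, Klf4, Klf5, Tfcp2l1, Nr0b1 and Tbx3. All 10 were found among the 21690 features of the deposited tables, 9 under these symbols and Tfcp2l1 under its older symbol Tcfcp2l1. The members were taken up with earlier results of these data known, so their counts describe them and are no independent evidence.

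The cells were of the A2lox mouse embryonic stem cell line carrying a doxycycline-inducible Geminin knockdown, maintained on feeder fibroblasts with leukemia inhibitory factor (LIF) and then grown as a monolayer in serum-free N2B27 medium. The knockdown group has 3 libraries from independent experiments, with 500 ng doxycycline added from day 3 and RNA taken on day 5. The control is 1 library of the same cells taken on day 5 without doxycycline, so the inducible construct was present in every library. There was no doxycycline-treated culture without the construct among the libraries used here, and the effects of doxycycline and of Geminin loss cannot be told apart. The lone control can come from at most 1 of the independent experiments, so differences between experiments and the change in a knockdown library cannot be told apart either. Each of 3 deposited tables sets 1 knockdown library against the control, and all 3 share that control. Levels are FPKM, the number of sequenced fragments divided by exon length and by library size, so they can be compared between genes. Absolute depth is unknown. The depth of knockdown libraries 1, 2 and 3 relative to the control, read from the steps between low values, was 1.00, 1.15 and 0.972.

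Pou5f1 (also called Oct4), Nanog and Sox2 form the core of the pluripotency network and bind together at many of its genes. Around them, a naive layer that includes Esrrb, Klf2, Klf4, Klf5, Tfcp2l1 and Tbx3 maintains self-renewal, in part downstream of LIF and Stat3. Embryonic stem cells shut these genes down on the way to neural precursors, whereas Sox2 stays on in neural precursors.

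The knockdown libraries did not behave alike, and this bears on every value below. Gmnn, which encodes Geminin, had 27.0, 65.9 and 27.9 FPKM in knockdown libraries 1, 2 and 3, against 113 FPKM in the control. The level left was thus 24.0%, 58.4% and 24.7% of the control, and the least depleted library was library 2. The authors' deposited tables marked Gmnn as significantly lower in libraries 1 and 3, but not in library 2 (q-value 0.0722 in the authors' deposited table). The pluripotency factors followed another order. In library 1 they lay near the control, with a median log2 ratio of 0.06 on the log2(FPKM + 1) scale used for all log2 ratios here. In library 2 the median was 1.55 and in library 3 it was 1.97. The same median over the 14477 features that could be called was 0.00, 0.02 and 0.01. Libraries 1 and 3 had nearly equal Gmnn levels and differed most in the pluripotency factors. Every marker on the neural precursor list was detected in every library, and cell identity itself was not tested. Sox1, an early neural transcription factor, had 63.8, 42.5 and 48.8 FPKM in the knockdown libraries and 64.0 FPKM in the control.

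By the rule stated for the series, a feature is called when at least 2 of the authors' 3 deposited tables mark it as significantly different and agree on the direction. By this rule 7 of the 10 factors rose, 0 fell and 3 were not called, while 1.98% of all features that could be called rose and 0.905% fell. Each of the 7 was called from libraries 2 and 3. Counted by table, 0 of the 10 were marked higher in library 1, 7 in library 2 and 10 in library 3, where the share of all testable features marked higher was 0.909%, 3.23% and 3.33%. No factor was marked lower in any table, where 1.52%, 2.02% and 1.28% of testable features were. In library 1 only 8 members were testable, since Klf2 and Nr0b1 were too low. Every one of the 10 was higher in library 3 than in library 2 and higher in library 2 than in the control, an order found in 18.8% of features with a mean of at least 1 FPKM. In bulk RNA, more cells expressing a gene and more RNA per cell cannot be told apart.

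**Figure D1:**
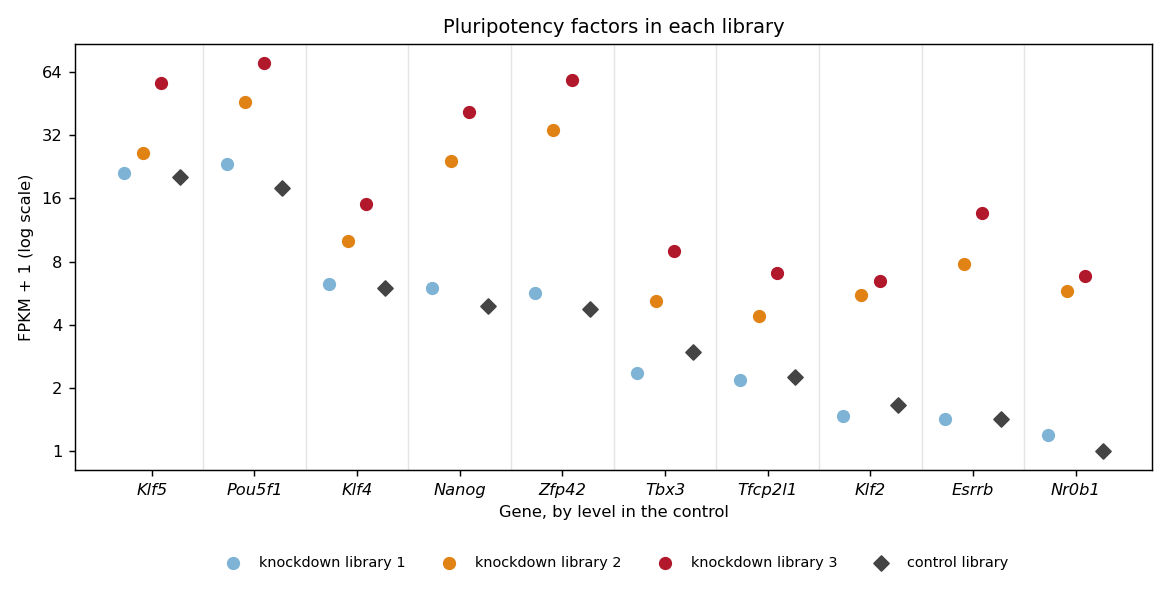
FPKM + 1 on a log axis for each of the 10 factors, with 3 knockdown libraries as circles and the control library as a diamond, and no error bars because each point is 1 library. Library 1 lies near the control for all 10 genes, and library 3 is the highest library for every gene, with Pou5f1 at 69.5 FPKM.

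The core factors were both called. Pou5f1, a POU-domain factor required for pluripotency, lies on chromosome 17 from 35642983 to 35647722 (mm9). It had 22.4, 45.2 and 69.5 FPKM in knockdown libraries 1, 2 and 3, against 16.9 FPKM in the control. All 3 knockdown libraries were above the control, by ratios of 1.33, 2.68 and 4.11, and Pou5f1 was the most abundant of the factors in every knockdown library. Nanog, a homeodomain factor that stabilises self-renewal, lies on chromosome 6 from 122657585 to 122663796. It had 4.97, 23.1 and 40.3 FPKM in the knockdown libraries, against 3.91 FPKM in the control. Library 1 was close to the control, and libraries 2 and 3 stood 5.89 and 10.3 times above it. The tables also list Nanogpd at the same position, with 2.56, 24.8 and 23.6 FPKM against 1.47 FPKM in the control, and reads of the overlapping features cannot be told apart. Their summed level was 7.53, 47.9 and 63.9 FPKM in the knockdown libraries and 5.38 FPKM in the control. Sox2, the core factor outside the set, had 140, 203 and 154 FPKM against 135 FPKM in the control and was marked in none of the tables.

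Among the factors with a ratio, the largest belonged to Esrrb and Zfp42, both under 4 FPKM in the control. Esrrb, an orphan nuclear receptor that sustains self-renewal, lies on chromosome 12 from 87702066 to 87862577. It had 0.415, 6.83 and 12.6 FPKM in the knockdown libraries, against 0.417 FPKM in the control. Library 1 had a ratio of 0.997, while libraries 2 and 3 reached ratios of 16.4 and 30.2. Zfp42 (also called Rex1), a zinc finger gene widely used as a marker of naive cells, lies on chromosome 8 from 44380420 to 44392363. It had 4.68, 33.0 and 58.0 FPKM in the knockdown libraries, against 3.74 FPKM in the control. In library 3 Zfp42 was above 91.4% of all features by FPKM, and in the control it was above 54.1%. It was second to Pou5f1 among the factors in libraries 2 and 3, whereas it was the fifth in the control.

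Because these genes moved together, the start regions of the core factors and of the genes with the largest ratios are shown, each running from 250 bases before to 50 after the annotated start in RefSeq (GRCm38.p6, a later build than the mm9 of the tables). Capitals mark matches, on either strand, to the octamer core letters TTTGCAT read by Pou5f1, the SOX letters ACAATG, the estrogen-related receptor letters AAGGTCA read by Esrrb and the Kruppel-like letters GGGNGTG. The windows are chr6:122707239-122707538 on the plus strand for Nanog, chr17:35505782-35506081 on the plus strand for Pou5f1, chr8:43306960-43307259 on the minus strand for Zfp42 and chr12:86360867-86361166 on the plus strand for Esrrb.
Nanog: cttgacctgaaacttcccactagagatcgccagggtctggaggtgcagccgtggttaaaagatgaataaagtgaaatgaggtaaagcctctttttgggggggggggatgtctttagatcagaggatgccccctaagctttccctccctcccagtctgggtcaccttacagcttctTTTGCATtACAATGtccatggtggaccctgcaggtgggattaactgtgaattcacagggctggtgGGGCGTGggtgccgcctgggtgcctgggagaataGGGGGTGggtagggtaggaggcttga
Pou5f1: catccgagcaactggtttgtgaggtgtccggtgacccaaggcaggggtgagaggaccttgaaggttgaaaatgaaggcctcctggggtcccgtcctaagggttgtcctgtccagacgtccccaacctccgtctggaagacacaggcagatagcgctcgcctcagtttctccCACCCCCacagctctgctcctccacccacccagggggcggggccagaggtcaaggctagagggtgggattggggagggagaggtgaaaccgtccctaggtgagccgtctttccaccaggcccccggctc
Zfp42: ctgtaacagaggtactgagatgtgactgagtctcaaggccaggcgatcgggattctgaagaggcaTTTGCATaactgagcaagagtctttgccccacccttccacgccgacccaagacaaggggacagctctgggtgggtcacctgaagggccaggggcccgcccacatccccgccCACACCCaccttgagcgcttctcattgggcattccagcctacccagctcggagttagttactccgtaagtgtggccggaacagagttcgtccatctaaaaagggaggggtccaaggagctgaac
Esrrb: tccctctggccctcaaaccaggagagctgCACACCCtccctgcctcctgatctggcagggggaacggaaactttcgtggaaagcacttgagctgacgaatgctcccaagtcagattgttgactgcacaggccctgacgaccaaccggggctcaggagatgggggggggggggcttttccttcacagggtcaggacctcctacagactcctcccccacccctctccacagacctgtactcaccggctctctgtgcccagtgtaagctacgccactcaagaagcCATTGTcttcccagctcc
In the Nanog window an octamer match at -75 and a SOX match at -67 from the start are separated by a single base, and none of the matches overlap. The Zfp42 window holds an octamer match at -185 and a Kruppel-like match at -74. RefSeq windows were matched for 8 of the 10 factors, with 11 windows in all: Pou5f1, Nanog and Esrrb each have a second window, and Klf5 and Tbx3 were not matched. The octamer letters occurred in 3 of these 11 windows, namely that of Zfp42 and both of Nanog, which overlap, and in 4.63% of all 32851 windows. SOX letters occurred in 4 of the 11, both Nanog windows and the second window of Pou5f1 (not shown) among them, and in 12.6% of all windows. Kruppel-like letters occurred in 7 of the 11, both Nanog windows among them, and in 29.2% of all windows. The estrogen-related receptor letters occurred in 0 of the 11 and in 4.72%. Counted by factor, the octamer, SOX and Kruppel-like letters were found for 2, 3 and 6 of the 8. These matches describe the letters only.

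The Kruppel-like factors, zinc finger proteins with overlapping roles in self-renewal, differed among themselves. Klf2, on chromosome 8 from 74842960 to 74845553, had 0.474, 4.53 and 5.48 FPKM in the knockdown libraries, against 0.665 FPKM in the control. It rose, with ratios of 6.81 and 8.23 in libraries 2 and 3. Klf4, on chromosome 4 from 55540008 to 55545347, had 5.27, 9.05 and 14.1 FPKM against 5.02 FPKM in the control. Klf5, on chromosome 14 from 99697909 to 99712628, had 20.1, 25.3 and 55.6 FPKM against 19.3 FPKM in the control. Klf4 and Klf5 were marked in library 3 alone and were not called. In library 2 their ratios were 1.80 and 1.31, and the authors' deposited table gave q-values of 0.352 and 0.802 there. Klf5 was the most abundant factor of the set in the control, and Klf2 was among the 3 least abundant. Klf5 also had the largest step between libraries 2 and 3, with a level in library 3 that was 2.20 times that in library 2. The median of this ratio was 1.75 over the 10 factors, and it was 1.21 for Klf2.

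**Figure D2:**
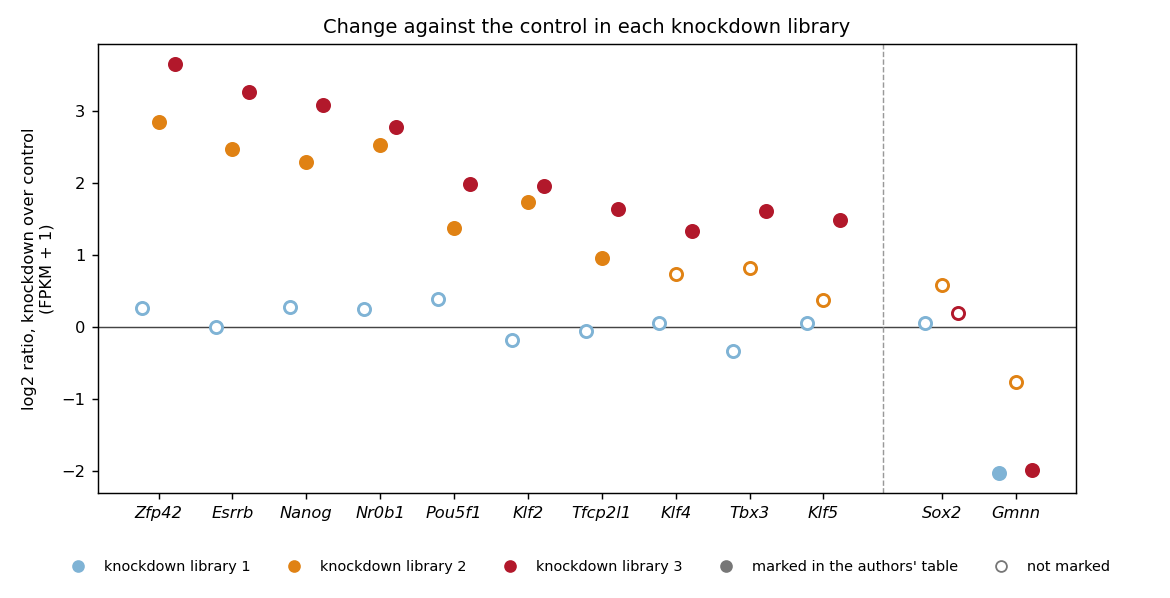
Log2 ratio of each knockdown library over the control on the log2(FPKM + 1) scale, for the 10 factors by mean ratio and, right of the dashed line, for Sox2 and Gmnn, with filled circles for ratios marked significant in the authors' table. Library 1 stays between -0.33 and 0.39 for the 10 factors, library 3 lies between 1.33 and 3.64, and Gmnn is lower in all 3 libraries.

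The remaining factors were at most 2 FPKM in the control. Tfcp2l1, a naive transcription factor of the CP2 family that acts downstream of Stat3, lies on chromosome 1 from 120524521 to 120581745. It had 1.18, 3.38 and 6.05 FPKM in the knockdown libraries, against 1.26 FPKM in the control, and it rose. Its mark in library 2 was the weakest of the 7 called factors, with a q-value of 0.0239 in the authors' deposited table. Nr0b1 (also called Dax1), a nuclear receptor family member that acts as a cofactor in the network, lies on chromosome X from 83437113 to 83441283. It had 0.192, 4.76 and 5.85 FPKM in the knockdown libraries and was listed at 0 in the control, so no ratio was formed, and it too rose. Tbx3, a T-box factor of the naive network, lies on chromosome 5 from 120120677 to 120134610. It had 1.35, 4.22 and 8.01 FPKM in the knockdown libraries, against 1.97 FPKM in the control. Library 1 was below the control, library 3 was marked, and library 2 was not (q-value 0.127 in the authors' deposited table), so Tbx3 was not called.

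Summed over the 10 factors, the level was 61.0, 159 and 276 FPKM in knockdown libraries 1, 2 and 3, against 53.2 FPKM in the control. The spread between knockdown libraries was of the size of the change itself. Pou5f1 averaged 45.7 ± 23.5 FPKM in knockdown and 16.9 FPKM in the control, and Zfp42 averaged 31.9 ± 26.7 FPKM against 3.74 FPKM (SD, n = 3 knockdown libraries, 1 control). In limma, fitted over 11968 features on the log2(FPKM + 1) scale, 0 of the 8 factors that could be tested passed an adjusted p of 0.05, and 0 had an unadjusted p under 0.05. The closest was Pou5f1, with a log2 change of 1.24, a standard error of 0.63 and an adjusted p = 0.999 in limma. Over all features limma called 0.0251% higher and 0.1% lower. The log2 change of Pou5f1 depended on which library was dropped. Dropping library 1 gave 1.67, dropping library 2 gave 1.18, and dropping library 3 gave 0.88. By the rule of the series the same 7 factors were called without library 1. The count was 0 when library 2 was left out and 0 when library 3 was left out: both remaining tables then had to mark a gene, and the table of library 1 marked 0 of the 10.

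Other genes of the pluripotency network were split. Of 20 measured genes, 18 of which could be called, 7 rose, 1 fell and 12 were not called, with median log2 ratios of 0.10, 0.60 and 1.22 in libraries 1, 2 and 3. Dppa5a, an RNA-binding protein of pluripotent cells, had 32.8, 184 and 286 FPKM in the knockdown libraries, against 19.9 FPKM in the control. Tdgf1, a co-receptor for Nodal, had 1.68, 14.6 and 35.5 FPKM against 1.42 FPKM in the control. Dppa2, a chromatin factor of early embryos, had 1.49, 7.42 and 13.2 FPKM against 0.970 FPKM in the control. All 3 genes were highest in library 3 and next in library 2. In library 1 Tdgf1 stood at 1.18 times the control, and Dppa5a and Dppa2 were further above it, at ratios of 1.65 and 1.54, and were not marked. Lin28a, an RNA-binding protein, was the member that fell, with 423, 169 and 193 FPKM against 459 FPKM in the control. The list had 1 member that rose when library 2 was left out and 0 when library 3 was left out, while Lin28a was called in both cases.

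The LIF and Stat3 pathway, which sustains the naive factors in culture, showed no call among 14 measured genes, of which 13 could be called. Over all features that could be called, 1.98% rose and 0.905% fell, so a list this short would hold few calls at that share. In libraries 1, 2 and 3 the median log2 ratios of the pathway were -0.05, -0.03 and 0.19. Jak2, the kinase that had the highest mean level on the list, had 58.3, 50.1 and 32.7 FPKM in the knockdown libraries against 60.7 FPKM in the control, and it was marked lower in library 3 alone. Ptpn11, a phosphatase that links the receptor to ERK signalling, had 41.3, 43.1 and 41.9 FPKM against 44.3 FPKM. Stat3 itself had 9.10, 9.88 and 11.3 FPKM against 8.34 FPKM in the control. Other genes of the list differed in order. Junb was below the control in all 3 knockdown libraries, with 5.91, 3.23 and 5.21 FPKM against 6.02 FPKM. Pim3 was highest in library 2, with 9.79, 14.3 and 13.2 FPKM against 11.3 FPKM. A pair of Stat3 target genes, chosen after their values were seen, had their highest values in library 3. Pim1, a kinase, had 16.9, 28.0 and 39.3 FPKM in the knockdown libraries against 17.4 FPKM and was marked in library 3 alone, and Socs3, a feedback inhibitor, had 4.49, 6.75 and 8.51 FPKM against 4.14 FPKM and was marked in none.

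Genes of the primed and formative epiblast, the stage that follows naive pluripotency, were called in the opposite direction. Of 15 measured genes, 14 of which could be called, 4 fell and 0 rose, with median log2 ratios of 0.05, -0.32 and -0.24. Wnt8a, a Wnt ligand, had 10.9, 0.808 and 2.04 FPKM in the knockdown libraries, against 9.90 FPKM in the control. Pou3f1, a POU factor that is used as a primed marker and is also expressed in neural precursors, had 5.28, 1.32 and 0.955 FPKM against 5.57 FPKM. Cldn6, a tight junction protein, had 27.4, 6.23 and 9.46 FPKM against 26.4 FPKM. Library 1 again lay near the control for these 3 genes, and libraries 2 and 3 were below it. The fourth was Dnmt3b, a DNA methyltransferase. Fgf5, the classical primed marker, was under 1 FPKM in every library.

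Among 11 factors known to restrain pluripotency genes, 1 fell and 0 rose, against 0.905% and 1.98% of all features that could be called. The factor that fell was Nr6a1, an orphan nuclear receptor (also called GCNF) that represses Pou5f1 during differentiation. Nr6a1 had 86.5, 29.7 and 26.6 FPKM in the knockdown libraries, against 94.1 FPKM in the control. A link between Nr6a1 and the level of Pou5f1 was not tested. Tcf7l1, a Wnt pathway repressor of naive genes, had 49.9, 33.1 and 38.0 FPKM against 48.5 FPKM and was not called. Median log2 ratios of this list were -0.09, -0.21 and -0.14.

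Markers of other cell types were set beside the factors. On the neural precursor list 2 of 14 rose and 0 fell: Vim, an intermediate filament protein, with 376, 1005 and 958 FPKM in the knockdown libraries against 388 FPKM in the control, and Ncam1, a neural adhesion molecule, with 10.4, 26.5 and 22.7 FPKM against 12.7 FPKM. The list summed to 1173, 2016 and 1751 FPKM against 1192 FPKM in the control, and to 798, 1011 and 794 FPKM against 805 FPKM without Vim. Over its 14 genes the log2 ratio to the control had a median of -0.01 in library 1, 0.41 in library 2 and 0.01 in library 3. On the feeder fibroblast list, where 11 of 14 could be called, 3 rose and 0 fell. Among all features that could be called, 1.98% rose. At a q-value under 0.01, 0 feeder markers rose, because the 3 genes that rose met that threshold in library 3 alone. Postn, Lox and Col5a2 had q-values of 0.0188, 0.0234 and 0.0314 in library 2 in the authors' deposited table. In library 3 the deposited q-values were 0.000515, 1.08e-06 and 3.5e-07. In library 3, 6 feeder markers were marked higher. The feeder list had median log2 ratios of 0.01, 0.72 and 0.73 in libraries 1, 2 and 3. Its summed level moved with the factors, at 46.0, 64.8 and 102 FPKM in the knockdown libraries against 44.4 FPKM in the control. Postn, a matrix protein, had 2.71, 4.74 and 6.55 FPKM against 1.23 FPKM; Lox and Col5a2, also of the matrix, were the others. No feeder marker was at 0 throughout, although Lum was listed at 0 in library 3 and in the control, and the part of feeder cells in the result was not tested. On the primitive endoderm list, where 9 of 10 could be called, 1 rose, Cubn, an endocytic receptor, with 5.21, 11.8 and 11.7 FPKM against 4.55 FPKM. The summed endoderm level was 285, 320 and 423 FPKM against 299 FPKM in the control, and Afp was listed at 0 in all 4 libraries. Lama1 made up the largest part of that sum, with 166, 192 and 268 FPKM against 179 FPKM. It was marked lower in library 1 and higher in library 3, and was not called.

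On the trophectoderm list, where 6 of 10 genes could be called, 3 fell and 0 rose, all 3 of them keratins of simple epithelia. Among all features that could be called, 0.905% fell and 1.98% rose. Krt8 had 150, 22.9 and 60.4 FPKM in the knockdown libraries against 139 FPKM in the control, and Krt18 had 176, 15.1 and 59.7 FPKM against 155 FPKM. Krt7 had 11.2, 0.385 and 2.28 FPKM against 10.4 FPKM. These keratins were lowest in library 2, whereas the pluripotency factors were highest in library 3. The summed level of the list was 348, 52.1 and 138 FPKM in the knockdown libraries against 319 FPKM in the control. These 3 keratins carried that difference in the sum. The other 7 genes summed to 11.9, 13.8 and 15.7 FPKM against 14.1 FPKM, and they did not move together. Tcfap2c had 2.75, 1.27 and 3.58 FPKM against 5.08 FPKM and was marked lower in library 2 alone. Tead4 had 6.78, 12.0 and 10.2 FPKM against 6.87 FPKM and was not marked in any library. The defining trophectoderm factors Cdx2 and Elf5 were under 0.2 FPKM in every library. Without library 1, the counts of each list were as given here except that 6 of the other pluripotency genes rose. When library 2 or library 3 was left out, no list had more than 1 call in either direction.

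**Figure D3:**
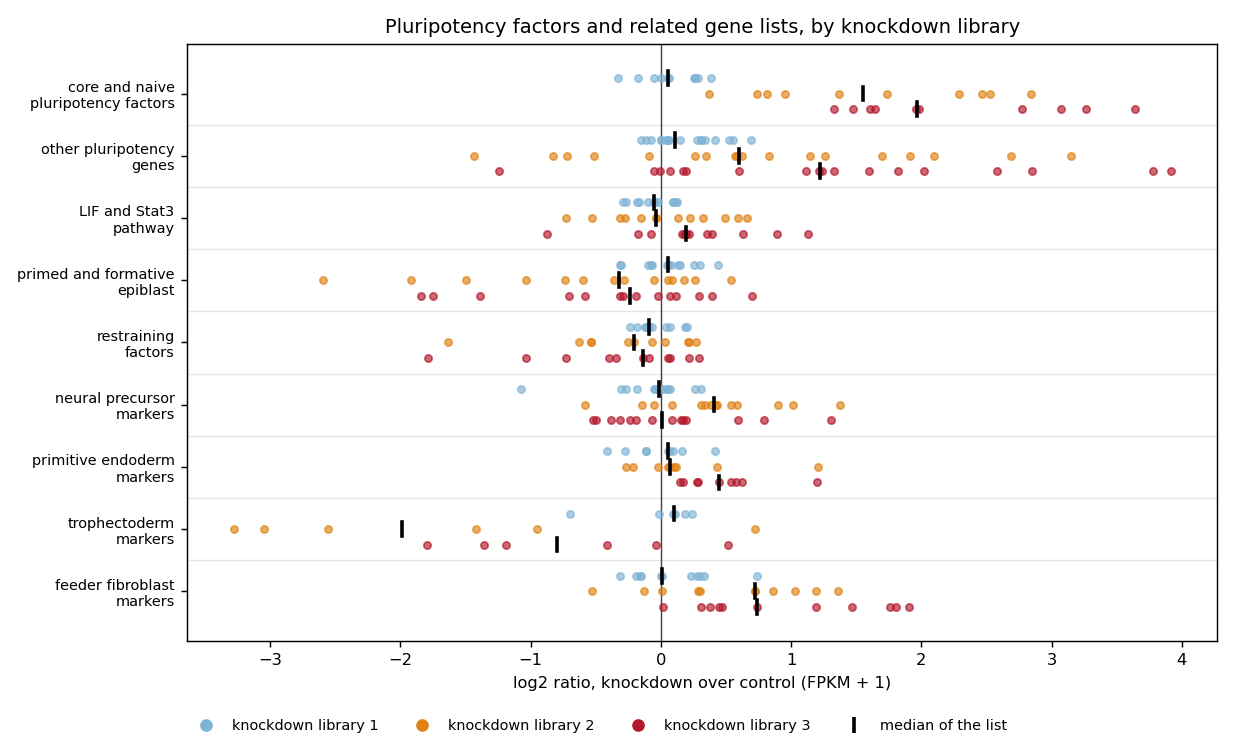
Log2 ratios over the control on the log2(FPKM + 1) scale for the 10 factors and the related lists, 1 point per gene that could be called and 1 row of points per knockdown library, with a black bar at the median. The factors have medians of 1.55 and 1.97 in libraries 2 and 3, and the trophectoderm list has medians of -1.99 and -0.80.

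Among 11960 other features with a mean of at least 1 FPKM, 5 lay nearest to the median pattern of the factors by Euclidean distance over the 3 log2 ratios. They were Gm4027, I1C0022H11Rik, Mreg, Chchd10 and Emid2, at distances of 0.17, 0.18, 0.19, 0.24 and 0.26 log2 units. Chchd10, a mitochondrial protein, had 7.59, 20.7 and 33.0 FPKM in the knockdown libraries, against 6.58 FPKM in the control. Mreg had 4.87, 13.9 and 18.1 FPKM against 4.42 FPKM. Of the 5, Gm4027 alone was not called. A likeness over 3 libraries that share a control describes these values only.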

How the data were processed

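RNA was sequenced from 3 knockdown cultures and 1 control culture. Per the submitters' processing notes, the authors used TopHat, Cufflinks and Cuffdiff with mm9, with versions and annotation not given in the sources used here. The authors' deposited tables hold FPKM, a Cuffdiff p-value per pair of libraries, a q-value (a score here, since some exceed 1), and a natural log ratio of control over knockdown, a score used to check column direction. The deposited mark equals a q-value under 0.05 with a usable status. Each mark compares 1 library with 1 library, not the conditions. FPKM values are not counts, so no count model was used. A member's control value differed by at most 0.385% between tables, and ratios were formed within a table.

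The members and gene lists were chosen with earlier results of these data known. Named genes are the members, Gmnn, Sox2, features overlapping a member and the 5 nearest features. Up to 3 called genes of each list with the largest mean log2 ratio were also named, or otherwise the 2 most abundant. Sox1, Stat3, Lin28a, Dnmt3b, Fgf5, Tcf7l1, Pim1, Pim3, Junb, Socs3, Afp, Lum, Cdx2 and Elf5 were added after their values were seen. Otx2, Lama1, Tcfap2c and Tead4 were added in the same way. The sums without Vim or the keratins were also added after their values were seen. Limma 3.58.1 (R 4.3.3, trended prior, Benjamini-Hochberg) was fitted to log2(FPKM + 1) for features tested in all 3 tables with a mean of at least 1 FPKM. Klf2 and Nr0b1 were thereby left out. The fit has 2 residual degrees of freedom and assumes that the control, which has no replicate, varies like the knockdown libraries. The code was first run on simulated data with an equal change in all 3 knockdown libraries. That run does not cover knockdown libraries that differ as these do. An exact permutation test of 3 against 1 cannot go below p = 0.25 one-sided, so none was run. The alternatives were other call rules, filters, pseudocounts and scalings, and each knockdown library left out. The shorter files, which repeat marked features, were left out.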

Additional observations from a re-analysis of the deposited data

How the results depend on the processing

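The mean log2 ratios of the 10 factors stayed above 0 in all 50 recalculations. These used another pseudocount, median-centred libraries, or left out each knockdown library in turn. Every recalculation kept library 2 or library 3, where all 10 factors were above the control, so a positive sign was nearly fixed in advance. In library 1, 6 factors were above the control and 4 were below it. Of the 50 values, 1 moved beyond the spread between libraries: Nr0b1, at 4.35 with a pseudocount of 0.1. The sizes moved with each library left out, and the 4 smallest ratios were reduced most, in proportion, without library 3: the mean log2 ratio of Klf5 was 0.21, against 0.63 with all libraries, that of Tbx3 0.24 against 0.69, that of Tfcp2l1 0.45 against 0.85 and that of Klf4 0.40 against 0.71. Of the 7 factors called by the rule of the series, 6 were called with a q-value under 0.01 or with a fold rule of 1 log2 unit, and Tfcp2l1 was lost in both; 10 were called with 1 table and 0 with all 3 tables. With a library left out the count was between 0 and 7. Over all features, 286 rose and 131 fell; the counts were 758 and 510 with 1 table, 3 and 14 with all 3 tables, and 161 rose with a q-value under 0.01. With a library left out, between 12 and 272 rose and between 22 and 120 fell. In the related lists together, 13 genes rose and 9 fell; the counts were 20 and 15 with 1 table, 0 and 1 with all 3 tables, and 8 rose with a q-value under 0.01. With a library left out, between 0 and 12 rose and between 1 and 9 fell. Any count from a pair of tables needed a mark in each. Without library 1 that requirement left 7 factors, 272 rises and 120 falls, so the losses without library 2 or 3 come with how few of these features the table of library 1 marks. Limma called 0 factors under each alternative run. Over all features it called 15, against 9 with a pseudocount of 0.1, 4 with no minimum FPKM, 7 with no trend, and between 6 and 28 with a library left out; the cause was not tested. No paired analysis was possible because the control is 1 library. Depth is unknown in absolute terms and limits Klf2 and Nr0b1 in library 1, which were too low to test there.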
